A study of Mus musculus with 12 samples.

Results

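The genes described here are 10 genes of triglyceride storage and breakdown, *Dgat1*, *Dgat2*, *Plin2*, *Plin3*, *Pnpla2*, *Hilpda*, *G0s2*, *Lpl*, *Lipa* and *Abhd5*, of 52636 genes listed in the count tables. They were taken by symbol, and all 10 are listed in both tables. Because they were proposed with their response to CGRP already known, their values under CGRP are given as a description. Whether the fit over all genes called each of them is stated, but no p-value is printed and the call is not read as a test. Neutrophils and monocytes were isolated with kits from the bone marrow of C57BL/6 J mice aged 8 to 12 weeks. Neutrophils were treated fresh in RPMI, and monocytes were first cultured in DMEM/F12 for 3 days with 10 ng/ml M-CSF, the growth factor that drives them towards macrophages. The labels call these cells monocyte/macrophage, and they are called macrophages below. Each cell type received 1 nM of the neuropeptide CGRP (calcitonin gene-related peptide) or PBS (saline) for 4 h. There were 3 libraries in each of the 4 groups, 12 in all. Neither the labels nor the methods say that libraries of a group came from separate mice or cultures, so the p-values below measure only the spread between these samples, which may be technical.

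Cells store fatty acids as triglyceride in lipid droplets. DGAT1 and DGAT2 add the last fatty acid, perilipins coat the droplet, and ATGL, encoded by *Pnpla2*, starts the breakdown with its co-activator ABHD5. G0S2 and HILPDA are small inhibitors of ATGL. Lipoprotein lipase (*Lpl*) releases fatty acids from circulating lipoproteins, and lysosomal acid lipase (*Lipa*) does so from lipids that reach the lysosome. Macrophages take up and store lipid readily. The CGRP receptor acts mainly through cyclic AMP.

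The libraries held between 2002559 and 3631989 UMI-filtered counts, and replicate 3 had the lowest total in each group. Levels are CPM, a gene's counts scaled to a fixed library total, after TMM scaling over the 12 libraries. Fold changes are log2 values with their standard error (SE), from limma-voom fitted to the 6 libraries of a cell type. A DEG is a gene whose Benjamini–Hochberg adjusted p was under 0.05 in that fit across all genes tested. Reverse transcription started from the poly-A tail, so a count stands for a transcript's 3′ end and levels of different genes are not compared. Where a marker is named with a sum, it is the one with the highest CPM in that sum, and nothing more is read from it.

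The markers matched the labels. The 8 neutrophil markers, of which *S100a8* was the most abundant, summed to between 103719 and 165071 CPM in the neutrophil libraries. In macrophage libraries they summed to 281, 345 and 261 CPM with saline and to 390, 360 and 347 CPM with CGRP. *Ly6g* was at 0 in 1 library of each of these groups. The 8 macrophage markers, led by *C1qb*, summed to 8968, 9129 and 9379 CPM in saline macrophages and to 9508, 10426 and 10920 CPM with CGRP. Both sums were higher in every CGRP library of macrophages than in every saline library, and no marker was a DEG in either cell type. In neutrophil libraries the macrophage markers, led by *Cd68*, summed to between 630 and 673 CPM with saline and between 591 and 707 CPM with CGRP, and these ranges overlap. The erythroid markers summed to between 4112 and 5346 CPM in saline neutrophils, and eosinophil and basophil markers to between 971 and 1149 CPM. Neither of the latter sums separated the treatments. The adipocyte genes *Lep* and *Plin1* had no count in any of the 12 libraries, and *Adipoq* was at 0 in every macrophage library. In bulk RNA, fewer cells of a type and less RNA per cell cannot be told apart.

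The levels of *Dgat1* were higher with CGRP in both cell types. *Dgat1* (chr15:76502015-76511953, minus strand, GRCm38) measured 118, 113 and 112 CPM in saline neutrophils and 216, 250 and 204 CPM in CGRP neutrophils. In macrophages it measured 12.9, 19.8 and 15.5 CPM with saline and 75.2, 56.9 and 67.9 CPM with CGRP. In neither cell type did the groups overlap, and the saline libraries of neutrophils lay close together. The fold change was 0.98 ± 0.10 (SE, log2, n = 3 per group) in neutrophils, or 1.97-fold, and 2.06 ± 0.21 in macrophages, or 4.18-fold. *Dgat1* was among the DEGs of both cell types, also with any 1 library left out. The macrophage level was 14% of that in saline neutrophils with saline and 58.2% with CGRP, where the 8 neutrophil markers stood between 0.0438% (*Camp*) and 11.9% (*Csf3r*) of their own neutrophil levels with saline, and between 0.0405% (*Ly6g*) and 13.2% (*Csf3r*) with CGRP.

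*Dgat2* (chr7:99153658-99182719, minus strand) encodes the other enzyme of this step, which is unrelated in sequence. It measured 172, 186 and 179 CPM in saline neutrophils and 316, 297 and 284 CPM with CGRP, groups that lie well apart. The fold change was 0.76 ± 0.08, and *Dgat2* was among the DEGs, also with any 1 library left out. The saline libraries of macrophages held 3, 6 and 6 counts and the CGRP libraries 18, 5 and 9, which overlap. *Dgat2* did not pass the filter on low counts there and was not tested. Saline macrophages held 0.898% of the saline neutrophil level of *Dgat2* and CGRP macrophages 2.24%. Of the 8 neutrophil markers *Csf3r* (11.9% and 13.2%) and *Mmp8* (1.9% and 2.88%) stood above these shares and the other 6 below them, such as *S100a8* at 0.213% and 0.245%. The part of neutrophil RNA in these counts was not tested.

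The levels of the lipase *Lpl* were lower with CGRP in both cell types. *Lpl* (chr8:68880491-68907448, plus strand) measured 56.9, 63.5 and 49.7 CPM in saline neutrophils and 26.0, 20.2 and 14 CPM in CGRP neutrophils. These were between 138 and 207 counts against between 32 and 80. In macrophages it measured 4484, 4676 and 3948 CPM with saline and 2968, 3017 and 2352 CPM with CGRP. The groups did not overlap in either cell type. The fold change was −1.48 ± 0.18 in neutrophils and −0.65 ± 0.13 in macrophages, and *Lpl* was a DEG in both. In macrophages it was no longer one without saline replicate 1, where the fold change was −0.63.

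The *Lpl* level of saline neutrophils was 1.3% of that of saline macrophages. The macrophage markers *C1qb* and *Mertk* stood at 2.05% and 2.8% in the same libraries, *Cd68* at 8.35%, *Adgre1* at 9.31% and *Csf1r* at 25.9%. With CGRP, none of the 7 macrophage markers tested in neutrophils was a DEG. Their log2 differences were 0.42 ± 0.27 for *Mrc1*, 0.10 ± 0.08 for *Cd68*, −0.02 ± 0.14 for *C1qb*, −0.04 ± 0.16 for *C1qa*, −0.13 ± 0.09 for *Csf1r*, −0.26 ± 0.29 for *Fcgr1* and −0.50 ± 0.15 for *Adgre1* (limma-voom adjusted p = 0.0934 for *Adgre1*, the lowest). The part of macrophage RNA in the neutrophil *Lpl* values was not tested.

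*Lipa* (chr19:34492318-34527474, minus strand) measured 50, 60.2 and 63 CPM in saline neutrophils and 37.1, 33.1 and 40.8 CPM with CGRP. The groups did not overlap, the fold change was −0.63 ± 0.14, and *Lipa* was a DEG there. It was no DEG without saline replicate 2 (−0.61), saline replicate 3 (−0.57) or CGRP replicate 2 (−0.56). Its neutrophil level was 4.85% of the macrophage level, so that the macrophage markers above bear on it too. In macrophages the values were 1176, 1016 and 1381 CPM with saline and 829, 895 and 1157 CPM with CGRP. The highest CGRP library lay within the saline range, and the difference of −0.31 ± 0.15 was not among the DEGs.

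Of the 2 droplet coat genes, *Plin2* was lower with CGRP in macrophages, where its level was higher than in neutrophils. *Plin2* (chr4:86648386-86670060, minus strand) encodes the perilipin that is bound to droplets in most cells. It measured 962, 966 and 864 CPM in saline macrophages and 653, 625 and 653 CPM with CGRP, and the groups lie apart. With a fold change of −0.53 ± 0.12 *Plin2* was a DEG, but not without saline replicate 1 (−0.50) or CGRP replicate 2 (−0.51). In neutrophils it measured 140, 149 and 170 CPM with saline and 152, 142 and 141 CPM with CGRP. These groups overlap and the difference was −0.06 ± 0.10. Of the 31-base sequences in the last 500 bases of the *Plin2* transcript, 3.19% also occur in the annotated gene *Gm12551*.

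*Plin3* (chr17:56277476-56292873, minus strand) encodes a perilipin that moves between the cytosol and new droplets. It measured 155, 158 and 187 CPM in saline neutrophils and 132, 136 and 160 CPM with CGRP, which overlap. In macrophages the values were 180, 203 and 195 CPM with saline and 149, 163 and 159 CPM with CGRP, without overlap. The differences were −0.22 ± 0.10 and −0.29 ± 0.13, and *Plin3* was a DEG in neither cell type. In the last 500 bases, 4.68% of its 31-base sequences occur in *Gm47076*.

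*Pnpla2* (chr7:141455198-141460743, plus strand), the gene of ATGL, measured 75.5, 56.6 and 90.2 CPM in saline macrophages and 92.5, 122 and 132 CPM with CGRP. The lowest CGRP library lay just above the highest saline library. The fold change was 0.65 ± 0.18 and *Pnpla2* was a DEG, but not without saline replicate 1 (0.68), saline replicate 2 (0.46), CGRP replicate 2 (0.60) or CGRP replicate 3 (0.55). In neutrophils it measured 83.2, 87.8 and 90.8 CPM with saline and 81.3, 74.8 and 76.3 CPM with CGRP. These groups do not overlap either, the difference was −0.15 ± 0.10, and it was no DEG.

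*Abhd5* (chr9:122351608-122381524, plus strand), the co-activator of ATGL, measured 62.5, 70.4 and 41.7 CPM in saline macrophages and 32.0, 32.5 and 27.2 CPM with CGRP. The groups do not overlap, although saline replicate 3 lay nearer to the CGRP libraries than to the other saline libraries. With a fold change of −0.89 ± 0.21 *Abhd5* was a DEG, but not without saline replicate 1 (−0.82), CGRP replicate 2 (−0.93) or CGRP replicate 3 (−0.82). In neutrophils the values were 149, 150 and 153 CPM with saline and 131, 129 and 123 CPM with CGRP. They do not overlap, and the difference of −0.22 ± 0.09 was not among the DEGs. The antisense gene *A730085K08Rik* shares 950 exonic bases with *Abhd5*, including every 31-base sequence of its last 500 bases, and had at most 1 count in any library. No strand setting of the counting is given in the sources used here, so reads of this pair could not be told apart if strand was not used.

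*G0s2* (chr1:193272161-193273217, minus strand), an inhibitor of ATGL, measured 181, 202 and 181 CPM in saline neutrophils and 261, 255 and 209 CPM with CGRP. The lowest CGRP library lay just above the highest saline library. With a fold change of 0.37 ± 0.09 *G0s2* was a DEG. It was no DEG without any 1 of saline replicates 1, 2 and 3 or CGRP replicates 1 and 2, where the fold change stayed between 0.33 and 0.42. The saline libraries of macrophages held 3, 13 and 2 counts and the CGRP libraries 10, 17 and 11. These overlap, the fold change of 1.62 ± 0.58 was imprecise, and *G0s2* was no DEG, although it was one without CGRP replicate 1 (1.97). With 1 library left out the fold change ran from 1.25 (without saline replicate 1) to 2.33 (without saline replicate 2). In macrophages the mean was 0.97% of that in saline neutrophils with saline and 2.65% with CGRP. As for *Dgat2*, the shares of *Csf3r* and *Mmp8* were above these and those of the other 6 neutrophil markers below them, and the part of neutrophil RNA was not tested. *G0s2* lies within *Lamb3* on the opposite strand, with which it shares no exonic base and which had at most 14 counts.

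*Hilpda* (chr6:29272488-29275446, plus strand), the other inhibitor, had between 25 and 87 counts per library. It measured 9.75, 12 and 8.99 CPM in saline macrophages and 27.3, 22.2 and 12.6 CPM with CGRP. CGRP replicate 3 lay close to the saline libraries. With a fold change of 1.00 ± 0.29 *Hilpda* was a DEG. Of the fits that leave out 1 library it was a DEG only without CGRP replicate 3 (1.27), and in the other 5 (without any 1 of saline replicates 1, 2 and 3 or CGRP replicates 1 and 2) the fold change lay between 0.75 and 1.12. In neutrophils it measured 10.1, 12.9 and 14.8 CPM with saline and 15.9, 12 and 16.2 CPM with CGRP, which overlap, and the difference was 0.23 ± 0.23.

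**Figure D1:**
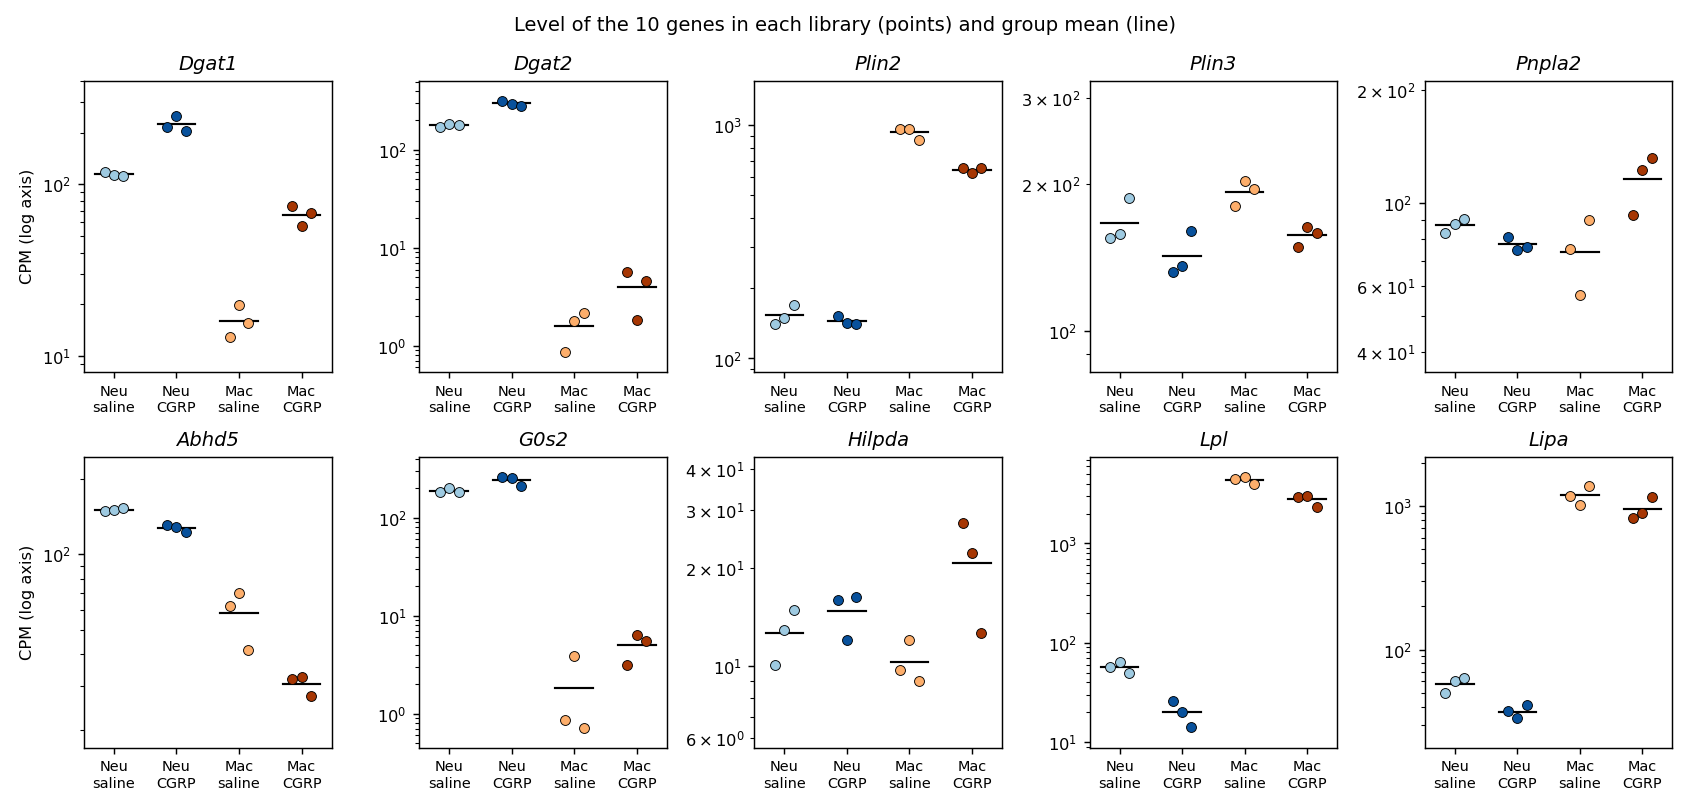
Level of each of the 10 genes in the 12 libraries, as TMM-scaled CPM on a log axis whose range differs between panels; points are libraries, lines are group means (n = 3), Neu are neutrophils and Mac macrophages. *Dgat1* lay higher and *Lpl* lower with CGRP in both cell types without overlap, and *Dgat2* and *G0s2* were near 0 in macrophages.

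Of the 10 genes, 5 were DEGs in neutrophils, *Dgat1*, *Dgat2* and *G0s2* higher and *Lpl* and *Lipa* lower, where 2.53% of all 9819 genes tested were DEGs (148 or 1.51% higher and 100 or 1.02% lower). All 10 passed the filter on low counts in neutrophils. In macrophages 6 of 9 genes tested were DEGs, *Dgat1*, *Pnpla2* and *Hilpda* higher and *Lpl*, *Plin2* and *Abhd5* lower, where 7.43% of 9393 genes were (325 or 3.46% higher and 373 or 3.97% lower). The groups did not overlap for 7 of 10 genes in neutrophils, where 17.8% of all genes did not overlap, and for 7 of 9 in macrophages, where 24.1% did not. Since the genes were chosen on this contrast, nothing is read from these counts. The median log2 change of the genes tested was −0.11 in neutrophils and −0.29 in macrophages, against 0 over all genes in each. *Dgat1* and *Lpl* are the 2 genes that were DEGs in both cell types, in the same direction. With library totals in place of TMM, the neutrophil DEGs were 150 higher and 64 lower and the macrophage DEGs 245 higher and 405 lower, with 1 of the 10 genes higher and 3 lower in macrophages.

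The counts depended on single libraries. In neutrophils, DEGs numbered 138 without saline replicate 1 or saline replicate 2 and 153 without CGRP replicate 2, and 3 of the 10 genes were among them without saline replicate 2, saline replicate 3 or CGRP replicate 2. In macrophages, DEGs numbered 347 without saline replicate 1, 348 without CGRP replicate 2 and 439 without CGRP replicate 3. Without CGRP replicate 1 they were 420 higher and 345 lower. Of the 9 genes tested there, 1 was left among the DEGs without saline replicate 1 and 2 without CGRP replicate 2.

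**Figure D2:**
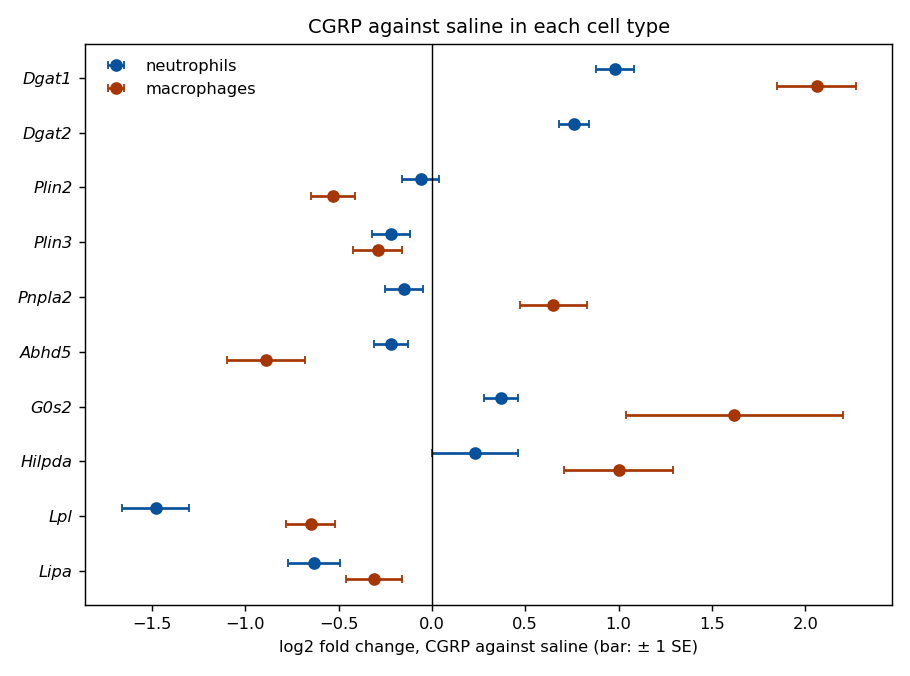
Fold change of each gene with CGRP against saline, as log2 on the x axis, with ± 1 SE (3 libraries per group), in neutrophils (blue) and macrophages (brown); *Dgat2* was not tested in macrophages. *Dgat1* lies farthest to the right in macrophages at 2.06 and *Lpl* farthest to the left in neutrophils at −1.48.

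The starts of the droplet and lipase genes were read for short motifs of factors known from cyclic AMP signalling and lipid metabolism. RefSeq promoter windows of GRCm38.p6, from 250 bases before the start site to 50 after, matched 7 of the 10 genes in 8 windows; *Dgat1*, *Dgat2* and *Lpl* were not matched. The cyclic AMP response element (CRE) TGACGTCA was in none of the 7 genes and in 1.79% of 32851 promoters, searched on both strands. Its shorter form TGACG, which is part of the longer one, was in *Hilpda*, *G0s2*, *Lipa* and *Abhd5*, 4 of 7 genes, and in 20.8% of all promoters. The E-box CACGTG, read by MITF and TFE factors among others, was in *Plin2* and in 7.15% of promoters. The nuclear receptor motif AGGTCA was in *Plin2* and *Abhd5* and in 16.3% of promoters. A match describes the letters only. The windows of *Plin3* and *Pnpla2* held no match. The 3 windows below are shown because they hold a match and belong to genes that were DEGs in macrophages, *Plin2* and *Abhd5* lower and *Hilpda* higher. Capitals mark the matches in the orientation in which they lie, so that a motif on the other strand appears as its reverse complement (CGTCA for TGACG and TGACCT for AGGTCA).
Plin2, chr4:86670010-86670309, minus strand: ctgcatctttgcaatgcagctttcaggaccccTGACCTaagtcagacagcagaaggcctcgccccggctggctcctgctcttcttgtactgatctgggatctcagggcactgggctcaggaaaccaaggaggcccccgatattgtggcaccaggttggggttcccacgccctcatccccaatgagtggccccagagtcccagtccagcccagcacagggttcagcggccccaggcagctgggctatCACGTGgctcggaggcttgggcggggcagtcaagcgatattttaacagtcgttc
Abhd5, chr9:122351366-122351665, plus strand: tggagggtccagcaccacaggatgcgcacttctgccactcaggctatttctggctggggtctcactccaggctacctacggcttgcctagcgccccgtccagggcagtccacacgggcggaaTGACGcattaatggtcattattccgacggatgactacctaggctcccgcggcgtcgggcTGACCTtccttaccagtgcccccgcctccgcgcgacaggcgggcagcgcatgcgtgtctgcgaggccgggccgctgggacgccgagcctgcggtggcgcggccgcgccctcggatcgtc
Hilpda, chr6:29272238-29272537, plus strand: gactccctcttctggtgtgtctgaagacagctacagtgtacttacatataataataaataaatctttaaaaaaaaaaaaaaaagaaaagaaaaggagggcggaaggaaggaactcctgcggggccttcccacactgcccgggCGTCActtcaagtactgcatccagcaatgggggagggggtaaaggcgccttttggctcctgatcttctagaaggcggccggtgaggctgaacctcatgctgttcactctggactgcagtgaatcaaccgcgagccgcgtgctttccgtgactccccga
In *Plin2* the E-box begins 4 bases before the start site and the AGGTCA match 218 bases before it. In *Abhd5* the TGACG match begins 128 bases and the AGGTCA match 69 bases before the start, and in the *Hilpda* window shown the TGACG match begins 108 bases before it. The other *Hilpda* window, for a start site farther downstream, holds this match at 246 bases and a further one at 68 bases before its own start.

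Other genes of lipid storage and use were tested under CGRP from 5 lists with 85 genes. These lists too were chosen with earlier results of these data known. Their p-values and shares, here and below, are therefore not independent support. In neutrophils 3 of 51 tested genes were DEGs (5.88%, where 2.53% of all genes were), and 34 were too low to test. *Slc27a4*, a fatty acid transport protein that activates long-chain fatty acids, measured 50.3, 42.4 and 64.8 CPM with saline and 85.8, 112 and 103 CPM with CGRP. It rose by 0.97 ± 0.14 (log2; limma-voom, adjusted p = 0.000327). *Acadl*, a dehydrogenase of mitochondrial fatty acid oxidation, fell from 101, 104 and 93.0 CPM to 61.1, 62.8 and 54.8 CPM (−0.72 ± 0.11, adjusted p = 0.000376). *Pcyt1a*, which makes the phosphatidylcholine precursor for droplet surfaces, fell from 115, 118 and 122 CPM to 83.6, 80.1 and 80.2 CPM (−0.52 ± 0.10, adjusted p = 0.00326). The groups of these genes did not overlap, and each was a DEG with any 1 library left out. In a single fit over all 12 libraries *Pcyt1a* was no DEG (−0.54, limma-voom adjusted p = 0.156).

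In macrophages 5 of 52 tested genes were DEGs (9.62%, where 7.43% of all genes were), and 33 were too low to test. *Lpin2*, a phosphatidate phosphatase that makes the diacylglycerol on which DGAT acts, rose from 57.4, 52.7 and 62.6 CPM to 158, 155 and 138 CPM (1.39 ± 0.14, limma-voom adjusted p = 9.16e-06). *Fabp4*, a fatty acid carrier, fell from 644, 844 and 667 CPM to 349, 343 and 254 CPM (−1.19 ± 0.15, adjusted p = 9.35e-05). Both were DEGs with any 1 library left out. *Pcyt1a* fell here too, from 83.5, 77.6 and 114 CPM to 32.6, 63.2 and 54.3 CPM (−0.92 ± 0.22, adjusted p = 0.0157). Without CGRP replicate 1, its lowest library, the change was −0.61 and the adjusted p 0.0516.

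*Angptl4*, a secreted inhibitor of lipoprotein lipase, measured 45.6, 48.5 and 46.7 CPM with saline and 72.7, 65.0 and 69.9 CPM with CGRP (0.56 ± 0.15, limma-voom adjusted p = 0.0285). It was still a DEG without saline replicate 3, and with any other library left out its adjusted p was between 0.0504 and 0.142. *Tmem159*, a lipid droplet assembly factor that binds seipin, measured 31, 31.8 and 33.4 CPM with saline and 46.4, 45.4 and 49.3 CPM with CGRP (0.55 ± 0.16, adjusted p = 0.0477). With any 1 library left out its adjusted p was between 0.0605 and 0.201. Without saline replicate 1, saline replicate 2, CGRP replicate 2 or CGRP replicate 3, the lists held 3 DEGs in place of 5.

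By list, glycerolipid synthesis had no DEG among 13 genes tested in neutrophils (1 at an unadjusted p under 0.05, none by edgeR or DESeq2, and *Agpat4* with the replicate number as a block, 0.59, adjusted p = 0.0269) and 1, *Lpin2*, among 12 in macrophages. Droplet coat and assembly genes had 1 of 9 lower in neutrophils, and 1 higher and 1 lower of 9 in macrophages. Other lipases had no DEG among 8 and 7 genes, with 2 and 0 at an unadjusted p under 0.05 and none by edgeR or DESeq2. Lipoprotein lipase handling and fatty acid uptake had 1 of 6 higher in neutrophils, and 1 higher and 1 lower of 9 in macrophages. Mitochondrial oxidation had 1 of 15 lower in neutrophils and none of 15 in macrophages, where 1 was at an unadjusted p under 0.05 and edgeR and DESeq2 called none. The median log2 change of each list was −0.10 to 0.15 in neutrophils and −0.13 to 0.21 in macrophages, against 0 over all genes.

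**Figure D3:**
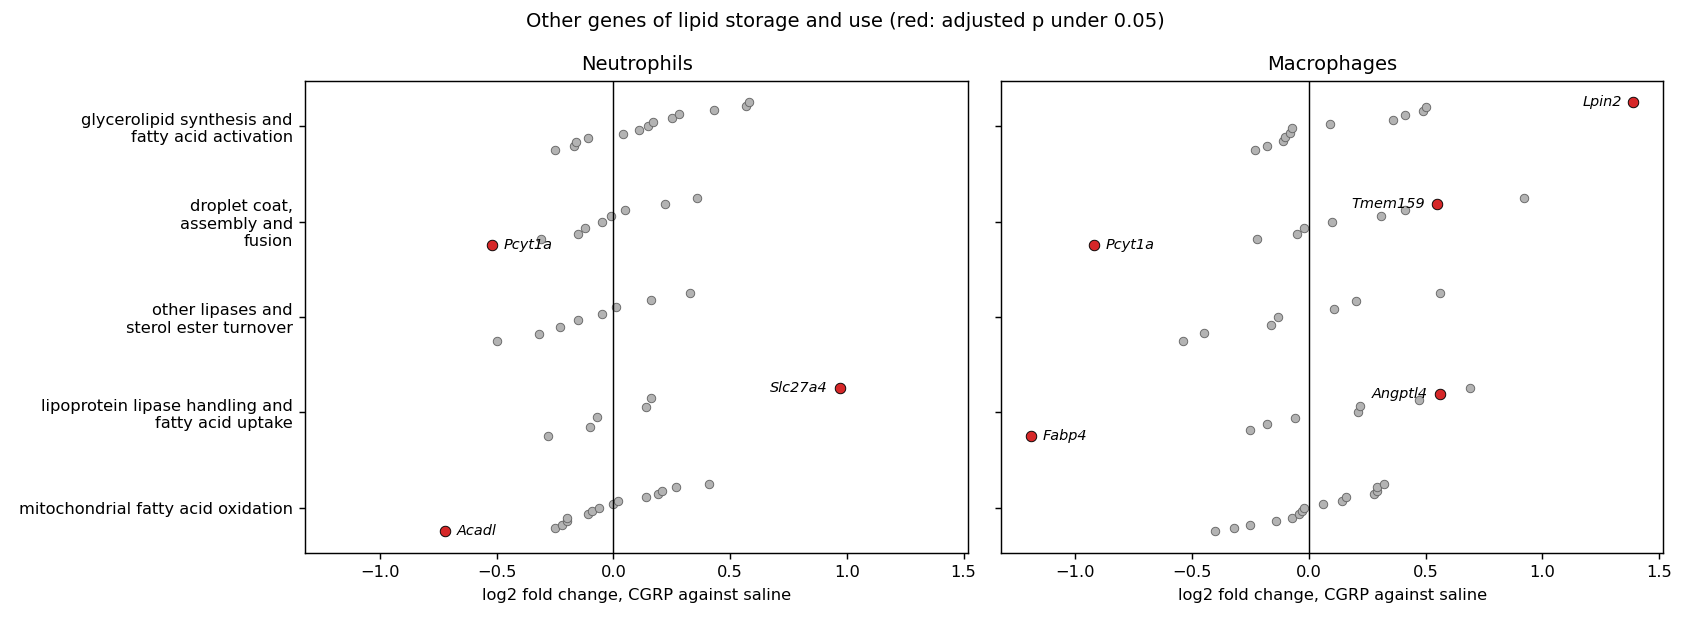
Fold change with CGRP against saline (log2, x axis) of each tested gene of the 5 lists, in neutrophils (left, 51 genes) and macrophages (right, 52 genes), ordered by value within a list; red points are DEGs and grey points are not. *Slc27a4* at 0.97 and *Acadl* at −0.72 stand apart in neutrophils, and *Lpin2* at 1.39 and *Fabp4* at −1.19 in macrophages.

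Whether CGRP acted differently on a listed gene in neutrophils and macrophages was tested as an interaction (limma-voom, all 12 libraries). *Lpin2* was the 1 of 55 tested genes that passed. Its change was larger in macrophages by 1.26 ± 0.19 (log2, adjusted p = 0.000235), where 2.36% of 10694 genes passed (129 or 1.21% higher and 123 or 1.15% lower). In neutrophils *Lpin2* measured 48.1, 42.4 and 49.7 CPM with saline and 47.1, 56.3 and 49.5 CPM with CGRP, which overlap. Without macrophage saline replicate 1 the interaction passed for 149 genes in place of 252, and without macrophage saline replicate 2 for 2 listed genes in place of 1. *Acadl* passed too with the replicate number as a block (0.66, limma-voom adjusted p = 0.0248) and with quality weights (0.64, adjusted p = 0.0318). With library totals in place of TMM, 88 genes had the larger value in macrophages and 154 in neutrophils.

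The resting levels differed between the cell types. Cell type goes together with isolation, medium and days in culture, which cannot be told apart from it. With saline, 7 of the 10 genes differed (limma-voom over the 12 libraries), where 67.9% of 10694 genes did. *Dgat2* passed the filter on low counts through neutrophils only, which favours a difference. *G0s2*, which passed it in both, had at most 13 counts in a saline macrophage library. Among genes that passed it in each cell type, 6 of 9 differed, 3 higher and 3 lower in macrophages, where 65.1% of 8635 genes did (33% higher and 32.1% lower), a share near that of the 9 genes. The saline libraries are those of the CGRP comparisons. Higher in macrophages were *Lpl* by 6.26 ± 0.14 (log2, adjusted p = 2.77e-20), *Lipa* by 4.36 ± 0.15 (adjusted p = 3.67e-17) and *Plin2* by 2.61 ± 0.10 (adjusted p = 4.14e-16). These are 76.8-, 20.5- and 6.1-fold, and 32.5% of all genes were higher.

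*Dgat1*, *Dgat2*, *G0s2* and *Abhd5* had lower levels in macrophages. *Dgat1* differed by −2.85 ± 0.18 (adjusted p = 2.81e-12, limma-voom) and *Dgat2* by −6.78 ± 0.41, from a mean of 179 CPM to one of 1.61 CPM near the floor. The *Dgat2* value is not read as a test. *G0s2* differed by −6.91 ± 0.46, from a mean of 188 CPM to one of 1.83 CPM, also near the floor. *G0s2* is counted among the lower genes above, but its p-value is not printed. Without macrophage saline replicate 2, which holds 13 of its 18 counts there, the value was −7.62. *Abhd5* differed by −1.39 ± 0.14 (adjusted p = 1.05e-08, limma-voom). Lower levels were found for 35.4% of all genes. *Plin3*, *Pnpla2* and *Hilpda* did not pass. Their differences were 0.21 (95% interval −0.01 to 0.43, adjusted p = 0.0972), −0.27 (−0.57 to 0.03, adjusted p = 0.128) and −0.27 (−0.82 to 0.28, adjusted p = 0.398). *Plin3* passed with library totals in place of TMM (0.31, adjusted p = 0.0304) and without neutrophil saline replicate 3 (0.30, adjusted p = 0.0416). *Pnpla2* passed without macrophage saline replicate 3 (−0.41, adjusted p = 0.026).

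**Figure D4:**
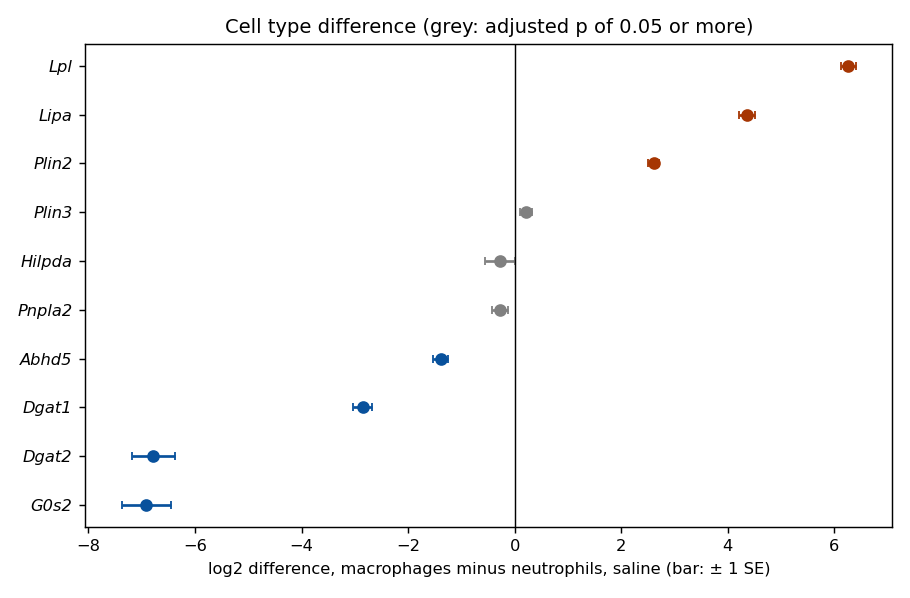
Difference between saline macrophages and saline neutrophils (log2, x axis, ± 1 SE, 3 libraries per group); brown is higher and blue lower in macrophages, and grey did not pass; *Dgat2* and *G0s2* were near the floor in macrophages, so that their values are imprecise and their order is not measured. *Lpl* lies farthest to the right at 6.26 and *Dgat2* and *G0s2* farthest to the left, with *Plin3*, *Hilpda* and *Pnpla2* near 0.

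Of the listed genes 42 of 55 (76.4%) differed between the cell types with saline, 33 higher and 9 lower in macrophages, where 67.9% of all genes differed, 32.5% higher and 35.4% lower. Of these 55, 7 passed the filter on low counts through 1 cell type only, which favours a difference (*Acsl3*, *Fabp3*, *Fabp4*, *Angptl4*, *Gpat3*, *Mogat2* and *Pnpla1*). Of the other 48, 29 were higher and 6 lower in macrophages, 72.9% against 65.1% of all genes that passed in each cell type. The 3 with the largest fitted rise were *Fabp4* (7.68 ± 0.37), the fatty acid and lipoprotein receptor *Cd36* (5.65 ± 0.15, limma-voom adjusted p = 3.56e-19) and the fatty acid carrier *Fabp3* (5.47 ± 0.65). *Fabp3* had 9 counts in all in saline neutrophils, about the floor, and with 1 library left out its value ran from 4.52 (without neutrophil saline replicate 3) to 6.21 (without neutrophil saline replicate 1), so that its rank is not firm. *Cd36* measured 1419 ± 193 CPM in saline macrophages and 28 ± 2.33 CPM in saline neutrophils (SD, n = 3). The 3 with the largest fitted fall were *Mogat2* and *Gpat3*, acyltransferases of glycerolipid synthesis, and *Pnpla1*, a lipase-like enzyme known from skin. They had no count in macrophages and measured 77.9 ± 1.97, 21.3 ± 5.92 and 5.91 ± 0.896 CPM in saline neutrophils. Taking 3 counts per library as the floor, they were at least 82.3-fold, 22.5-fold and 6.25-fold lower in saline macrophages, and their order against genes with counts in both cell types is not measured. *Mgll*, monoglyceride lipase, named after its values were seen, fell from 49 to 4.04 CPM (−3.6 ± 0.28, limma-voom adjusted p = 1.42e-10). Of the genes of lipoprotein lipase handling and uptake that passed the filter in each cell type, 5 of 6 were higher and *Slc27a4* was lower (−2.97 ± 0.26, adjusted p = 9.03e-10). Of the 15 oxidation genes, which all passed the filter in each cell type, 10 (66.7%) were higher in macrophages and none lower. Of all genes that passed in each cell type, 33% were higher and 32.1% lower.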

How the data were processed

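RNA of 12 libraries was measured by poly-A primed RNA-seq with unique molecular identifiers. Per the study's methods, the authors used STAR for alignment to GRCm38 and featureCounts for counting, and deposited unnormalised gene counts, 1 table per cell type. The annotation release and the strand setting are not given in the sources used here. The deposited counts were whole numbers, and no library was a copy of another. Of 52636 gene identifiers 52489 were found in the GENCODE annotation of GRCm38, which gave positions.

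The members and gene lists were chosen with earlier results of these data known. Genes were kept by filterByExpr, scaled by TMM and compared by limma-voom (two-sided, Benjamini–Hochberg over all genes, threshold 0.05), in each cell type's 6 libraries for CGRP, and over the 12 libraries for cell type and interaction. Printed CPM use the factors of the 12 libraries. The floor of 3 counts is between 0.861 and 1.51 CPM per library and covers counting error only.

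The text names the 10 members, listed genes that were DEGs (at most 15 per cell type), for the cell types the 3 listed genes with the largest rise and fall, and genes used as checks. It also names *Mgll* and *Hsd17b11*, singled out after their values were seen. Other listed genes are named where they passed the filter through 1 cell type only or were called only under another setting. The 5 lists cover glycerolipid synthesis, droplet coat, other lipases, lipoprotein lipase handling and uptake, and mitochondrial oxidation. B cell, T cell and platelet marker lists were summed too. In macrophages the B cell sum was 31.3 to 32.7 CPM with saline and 37.2 to 39.9 CPM with CGRP, the T cell sum at most 1.25 CPM and the platelet sum 631 to 977 CPM. In neutrophils they were at most 97.2, 30.7 and 189 CPM. The adipocyte and stroma sum was at most 32.8 CPM in any library.

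Results were recomputed with DESeq2, with edgeR (quasi-likelihood), with DESeq2's size factors in limma-voom, with library totals, without a filter, with at least 10 counts in every library, with quality weights, with the replicate block, in a single fit of 12 libraries, on the 6 saline libraries alone, and leaving out each library. The steps were tested on simulated data. Software was R 4.3.3, limma 3.58.1, edgeR 4.0.16, DESeq2 1.42.0, Python 3.11.15, pandas 2.3.3 and matplotlib 3.10.9.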

Additional observations from a re-analysis of the deposited data

Results flagged for a closer look

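*Lpin2* was flagged because the CGRP effect differed between the cell types, with a log2 change 1.26 larger in macrophages (interaction term in limma-voom, adjusted p = 0.000235), and every CGRP library of macrophages lay above every saline library. It passed with each of the 12 libraries left out in turn.

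*Pnpla2* was flagged because every CGRP library lay below every saline library in neutrophils (−0.15 ± 0.10, log2) and above every saline library in macrophages (0.65 ± 0.18). Of all genes tested, 17.8% did not overlap in neutrophils and 24.1% in macrophages, in either direction. *Pnpla2* was no DEG in neutrophils. In macrophages it was a DEG in 2 of the 6 fits that leave out 1 library. The difference between the cell types was not tested, since the gene was chosen on its response to CGRP.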

How the results depend on the processing

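None of the called genes named here changed direction in the comparison that called it, under the alternatives or with 1 library left out, as far as these were run for it. Of the genes that were not called, *Plin2* in neutrophils turned from −0.06 to 0.02 without saline replicate 3. In a single fit over the 12 libraries, 137 genes were DEGs in neutrophils, 3 of the 10 genes among them, and 1050 in macrophages. Quality weights gave 1406 DEGs in macrophages with 7 of the 10 genes in place of 6 (*G0s2* was added) and 11 listed genes in place of 5 (*Acsl4*, *Lpin1*, *Agpat4*, *Bscl2*, *Hsd17b11* and *Hadhb* were added), and 520 genes and 2 listed genes with an interaction. Library totals without TMM gave 3 listed genes in macrophages, as did no filter. With 1 library left out in turn, DEGs numbered 138 to 234 in neutrophils (3 to 5 of the 10 genes, 3 to 4 listed genes) and 347 to 765 in macrophages (1 to 6 and 3 to 6). The interaction gave 149 to 328 genes and 1 to 2 listed genes, and the cell types differed in 6889 to 7559 genes, 7 to 8 of the 10 and 42 to 49 listed genes.

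Libraries of different groups share replicate numbers in the labels. With the number as a block, the interaction gave 406 genes and 2 listed genes, *Lpin2* and *Acadl* (0.66, limma-voom adjusted p = 0.0248), and DEGs numbered 289 in neutrophils and 1007 in macrophages, with 4 and 6 listed genes (*Agpat4* was added in neutrophils and *Hsd17b11* in macrophages). Deviations of same-numbered libraries correlated across genes with r between −0.033 and 0.069 between the neutrophil treatments and between −0.122 and 0.172 between those of macrophages, so the pairing by number is not established. Between cell types r was 0.065 to 0.142 with saline and 0.019 to 0.077 with CGRP. Libraries of different numbers gave −0.119 to −0.008 with saline and −0.071 to 0.032 with CGRP. With saline, each same-numbered pair of cell types thus lay above every differently numbered pair. Deviations were taken from the mean of each group, so higher values in some pairs force lower ones in others. The negative values are therefore no separate observation. What libraries of the same number share is not stated in the labels.

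*Pcyt1a* in neutrophils lost its call in the single fit (adjusted p = 0.156). *Angptl4* lost it with library totals (0.0575) and no filter (0.0718), and *Tmem159* with DESeq2 (0.0851), library totals (0.102), no filter (0.129) and at least 10 counts (0.0519). Of the 10 genes, *Lipa* in neutrophils and *Pnpla2* and *Hilpda* in macrophages were no DEGs with library totals, *Lipa* and *G0s2* in neutrophils none in the single fit, and *Hilpda* none with at least 10 counts. The cause was not tested. *Dgat2* and *G0s2* had too few counts in macrophages for a firm value.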

Other observations

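*Hsd17b11*, a droplet-associated dehydrogenase of the droplet list singled out after its values were seen, varied between libraries of a group more than with the treatment. Its 6 neutrophil libraries measured 68.6, 41.4 and 102 CPM with saline and 50.1, 109 and 107 CPM with CGRP. The macrophage libraries of the same replicate numbers measured 48.2, 19.2 and 93.8 CPM with saline and 40.1, 107 and 139 CPM with CGRP. In both cell types saline replicate 2 was the lowest of the 6, followed by CGRP replicate 1, saline replicate 1 and saline replicate 3. It was no DEG in either cell type in the limma-voom fit of its 6 libraries, and it was one in macrophages with the replicate block (0.89, adjusted p = 0.00766).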
